A study of Mus musculus with 18 samples.

Results

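The expression of 7 genes was followed in the livers of mouse offspring: the fatty acid desaturases Fads1, Fads2, Fads3 and Fads6 and the fatty acid elongases Elovl1, Elovl2 and Elovl5. They were chosen by name, and every probe set that the platform annotation gives to 1 of these 7 symbols was taken. That gave 17 of the 45101 probe sets on the array. Of these, 14 passed a filter on low signal, and 3 did not (Fads3 1435910_at and 1449219_at, Elovl1 1443820_x_at). All 7 genes kept at least 1 probe set and were tested, among 11018 genes in all, each by its brightest kept probe set.

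The animals were offspring of the outbred mouse line DUK. Their dams ate isoenergetic diets with 20% protein by weight (control) or 40% (high protein, HP). Control offspring had dams on 20% protein in pregnancy and lactation. HP pregnancy offspring had dams on 40% protein in pregnancy and 20% in lactation, and HP lactation offspring the reverse. Liver was taken at postnatal day 21 or 150, which gave 6 groups of 3 arrays, and an array carried the combined RNA of several animals. The labels disagree on the pools (3 animals per pool in one place, 4 at day 21 and 3 to 4 at day 150 in another, and elsewhere 4 to 5 animals per group combined to 3 pools), so pools of a group may share animals and p-values describe the spread between pools. In pooled whole liver, fewer cells of a type and less RNA per cell cannot be told apart. Sex was not given.

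Mammals make long polyunsaturated fatty acids such as arachidonic acid and docosahexaenoic acid (DHA) from plant-derived precursors, mainly in liver. Desaturases add double bonds and elongases add pairs of carbons, in alternation: Fads2 acts first, Elovl5 lengthens its product, Fads1 desaturates again, and Elovl2 and Elovl5 lengthen further. Elovl1 works outside this chain on saturated and monounsaturated acyl chains of very long length, many of which enter sphingolipids. Several of these genes are known targets of the lipogenic factor SREBP1 and of nuclear receptors.

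The trimmed mean signal was 500 on each array, a value set by the scaling, so it does not show that the arrays are alike. The signal above which the brightest 1% of probe sets lay ran from 14971 to 19913. It was 14971 to 17741 after HP in lactation at day 21 and 17713 to 19913 in control of that day. The median Pearson correlation of log2 signal was 0.976 between arrays of 1 group and 0.973 between arrays of different groups of the same day. Between arrays of different days it was 0.942. No 2 columns were identical. The hepatocyte markers Alb and Apoa1 were bright in all 6 groups. Xist, which is made from the inactive X chromosome, was high on 2 arrays (control day 21 replicate 2, a signal of 7343, and HP lactation day 150 replicate 4, 11644) and at most 93 on the others. Of the 10 differences that passed the test for these 7 genes, 8 passed it without these 2 arrays, and the other two are named below. The ratio of the 3' to the 5' Gapdh control probe sets, which rises as RNA breaks down or is copied incompletely, was between 0.821 and 0.993 at day 21 and between 1.30 and 1.80 at day 150.

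Promoter sequences are shown for the 3 genes for which a difference passed the test in any comparison, to show which of the motif letters below they hold. They are the 250 bases before a RefSeq start on GRCm38.p6, 5' to 3' on the gene's strand, and capitals mark motif matches on either strand. The Fads2 window lies just outside the annotated gene. The annotated Fads6 gene runs to 115297731, so most of its window lies inside the gene, before an internal start. Elovl1 begins at 118426874, so its window lies inside the gene too. For Elovl1 the upstream of its 2 windows is given.

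Fads6, chr11:115297563-115297812, minus strand: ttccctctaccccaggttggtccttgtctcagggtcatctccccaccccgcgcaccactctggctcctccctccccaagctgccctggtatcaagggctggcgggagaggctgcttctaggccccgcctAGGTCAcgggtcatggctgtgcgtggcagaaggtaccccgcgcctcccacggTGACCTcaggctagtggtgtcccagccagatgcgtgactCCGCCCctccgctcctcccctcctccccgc

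Fads2, chr19:10101504-10101753, minus strand: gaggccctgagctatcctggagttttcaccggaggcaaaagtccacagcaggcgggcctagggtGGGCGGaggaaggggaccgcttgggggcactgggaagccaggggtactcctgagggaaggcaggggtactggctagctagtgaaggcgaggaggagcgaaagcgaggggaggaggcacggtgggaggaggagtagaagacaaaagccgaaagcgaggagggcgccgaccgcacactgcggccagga

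Elovl1, chr4:118427843-118428092, plus strand: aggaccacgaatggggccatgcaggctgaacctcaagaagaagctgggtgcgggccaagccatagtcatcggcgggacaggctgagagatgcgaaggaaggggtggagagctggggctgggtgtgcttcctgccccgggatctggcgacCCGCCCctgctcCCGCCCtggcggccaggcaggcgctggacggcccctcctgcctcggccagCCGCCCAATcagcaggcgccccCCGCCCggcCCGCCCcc

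Both strands were searched for AGGTCA, the half-site of nuclear receptors. The same was done for TCACNCCAC, a form of the site bound by SREBP, and for CACGTG, the core of the E-box. The general promoter elements searched were CCAAT, the GC box GGGCGG and the TATA box TATAAA. The Fads6 window held 2 matches to AGGTCA, 1 on each strand, which begin 121 and 69 bases before its start, and 1 to GGGCGG. These matches lie inside the annotated gene. Among all 32851 mouse windows of this length, 14% held AGGTCA. The Fads2 window held 1 GGGCGG and none of the others. The Elovl1 window held 5 GGGCGG matches and 1 CCAAT, which overlaps 1 of them. GGGCGG was in 32.7% of all windows and CCAAT in 33.8%. None of the 8 windows of these genes held TCACNCCAC (1.05% of all windows) or TATAAA (12.4%), and Elovl5 alone among them held CACGTG (6.02%). These are matches of letters in a short window. RefSeq windows were matched for 6 of the 7 genes, all but Fads1.

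Fads6 had the largest diet difference among those that passed the test. It is a member of the desaturase family whose substrate is not firmly known. On its brightest probe set, 1443904_at, the control arrays read 1935, 1755 and 2136 at day 21 and 1998, 1585 and 1765 at day 150. The HP pregnancy arrays read 1568, 1901 and 1927 at day 21 and 1113, 1010 and 1203 at day 150. The HP lactation arrays read 3059, 2276 and 3075 at day 21 and 2386, 2253 and 2306 at day 150. All 3 HP pregnancy arrays of day 150 lay below every other array, and all 6 HP lactation arrays lay above every array of the other diets.

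At day 150, Fads6 was 2.09-fold lower after HP in pregnancy than after HP in lactation, with group means of 1106 and 2314 (a log2 difference of -1.07, SE 0.137, 95% interval -1.35 to -0.78, limma adjusted p = 0.00292). This call held in all 18 refits, with log2 differences between -1.13 and -0.89. The 2 HP groups differed already at day 21, by a log2 difference of -0.63 (SE 0.137, limma adjusted p = 0.0284), with means of 1791 and 2777. The day 21 call was the less stable of the pair and held in 12 of 19 refits. It was lost without HP pregnancy replicate 1, 2 or 3 or HP lactation replicate 1, and the largest adjusted p over its refits was 0.164. The summed signal of 4 B and plasma cell markers was 240 to 329 at day 21 after HP in pregnancy and 107 to 154 after HP in lactation. That of 5 endothelial markers was 9139 to 11686 and 7355 to 7835. Between these groups 20.9% of all genes at day 21 and 22.9% at day 150 did not overlap in either direction. Of 30 tested markers of all lists, 8 lay higher after HP in pregnancy without overlap at day 21, and 6 at day 150. None lay lower than after HP in lactation at either day. The part of other cell types in these differences was not tested.

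Against control, Fads6 fell after HP in pregnancy at day 150 by 0.68 on the log2 scale (SE 0.137, limma adjusted p = 0.0238), or 1.60-fold, from a mean of 1775 to 1106. At day 21 the same contrast was -0.11 (limma adjusted p = 0.833). After HP in lactation Fads6 read above control at both days without overlap, by 0.52 at day 21 (SE 0.137, limma adjusted p = 0.116) and 0.38 at day 150 (limma adjusted p = 0.517), and neither passed the test. The difference between the HP pregnancy responses of the 2 days was -0.57 (SE 0.193, unadjusted p = 0.00838, limma adjusted p = 0.999), so the response was not shown to differ between days. The day 150 call against control was lost without control replicate 1 or 3 or HP pregnancy replicate 2. It was also lost in the mean of the gene's probe sets (-0.46, limma adjusted p = 0.0937) and with the Gapdh ratio as a covariate (-0.54, limma adjusted p = 0.158).

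The other Fads6 probe set, 1436355_at, separated the HP groups but not HP pregnancy from control. At day 150 it read 316, 412 and 387 after HP in pregnancy, 560, 646 and 603 after HP in lactation, and 526, 414 and 378 in control. In a fit of every kept probe set the difference between the HP groups was -0.70 (SE 0.170, limma adjusted p = 0.0651), with no overlap, and the difference between HP pregnancy and control was -0.24 (limma adjusted p = 0.508), with overlap. At day 21 the HP groups differed on it by -0.56 (limma adjusted p = 0.149), again with no overlap. HP lactation lay above control on this probe set too, by 0.56 at day 21 (limma adjusted p = 0.139) and 0.47 at day 150 (limma adjusted p = 0.467), without overlap at either day.

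**Figure D1:**
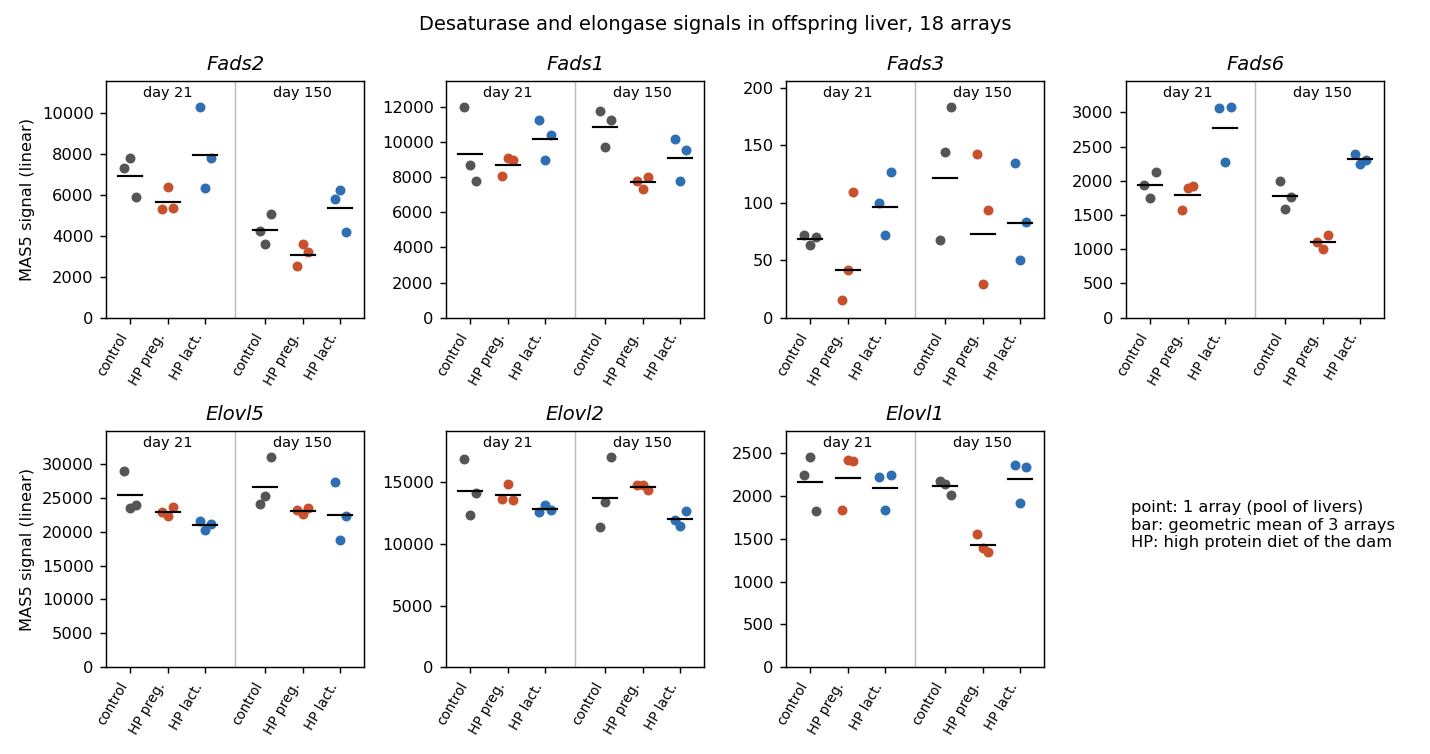
MAS5 signal on a linear axis from 0 for the tested probe set of each gene, in 6 groups of 3 arrays; points are arrays and bars geometric means. For Fads6 the HP pregnancy arrays of day 150 lie between 1010 and 1203, below all others, and the HP lactation arrays lie above all others; for Elovl1 the HP pregnancy arrays of day 150 lie between 1348 and 1553, below all others.

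Fads2, the first and rate-limiting desaturase of the pathway, was lower at day 150 than at day 21 in each diet group. Its tested probe set, 1419031_at, read 7271, 7771 and 5864 in control at day 21 and 4206, 3612 and 5056 at day 150. After HP in pregnancy it read 5298, 6381 and 5324 at day 21 and 2514, 3578 and 3193 at day 150, the lowest group mean of the 6 (3062). After HP in lactation it read 10254, 6303 and 7761 at day 21, the highest group mean (7946), and 5806, 6234 and 4167 at day 150. Within each diet the arrays of the 2 days did not overlap.

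With age Fads2 fell by 0.70 on the log2 scale in control (SE 0.191, limma adjusted p = 0.016), by 0.88 after HP in pregnancy (limma adjusted p = 0.00276) and by 0.58 after HP in lactation (limma adjusted p = 0.0324). All 3 Fads2 probe sets had negative age differences in every diet, between -1.02 and -0.49, and 8 of the 9 values passed the test in the fit of every kept probe set. The control call was lost without control replicate 2 of day 21, which is an array with Xist signal, or control replicate 2 of day 150. The HP lactation call was lost without replicate 1 or 3 of day 21 or replicate 6 of day 150. All 3 calls were lost with the Gapdh ratio as a covariate (differences of -0.60, -0.73 and -0.42), a ratio that separates the days completely, so that the 2 cannot be told apart here.

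By diet, Fads2 differed with no call. At day 150 the HP pregnancy arrays lay below all control arrays (-0.47, SE 0.191, limma adjusted p = 0.167) and below all HP lactation arrays (-0.80, SE 0.191, 95% interval -1.20 to -0.40, limma adjusted p = 0.0542). The other Fads2 probe sets, 1443838_x_at and 1449325_at, gave -0.70 and -0.58 against control and -0.76 and -0.67 against HP lactation, with no overlap in any of these 4 contrasts. At day 21 the differences were -0.29 for HP pregnancy against control and 0.20 for HP lactation against control, with overlap. On 1443838_x_at the HP pregnancy arrays of day 21 lay below all control arrays (-0.51, SE 0.213, limma adjusted p = 0.409) and all HP lactation arrays (-0.78, limma adjusted p = 0.106), while 1449325_at overlapped in both contrasts.

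Fads1, the desaturase that yields arachidonic and eicosapentaenoic acid, lies beside Fads2 on chromosome 19 in the RefSeq annotation, with Fads3 on the other side of Fads2. Its tested probe set, 1423680_at, read 11797, 9718 and 11236 in control at day 150 and 7790, 7357 and 8011 after HP in pregnancy. The HP lactation arrays of that day read 10197, 7802 and 9551 and overlapped both. The HP pregnancy difference was -0.50 (SE 0.144, 95% interval -0.80 to -0.19, limma adjusted p = 0.0687), a 1.41-fold lower mean that did not pass the test. It did pass when arrays were weighted and when the compared arrays were fitted alone. At day 21 control read 11986, 8715 and 7767, HP pregnancy 8075, 9095 and 8958, and HP lactation 11267, 9005 and 10416, and the groups overlapped.

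The second Fads1 probe set, 1440444_at, ordered the groups differently. At day 150 it read 191, 217 and 212 in control, 189, 187 and 169 after HP in pregnancy, and 386, 333 and 258 after HP in lactation. HP lactation thus lay above control by 0.64 (SE 0.183, limma adjusted p = 0.379), where 1423680_at gave -0.25. The 2 probe sets of Fads1 disagree in sign for this contrast. At day 21 both HP groups lay above control on 1440444_at, by 0.42 after HP in pregnancy (limma adjusted p = 0.425) and 0.56 after HP in lactation (limma adjusted p = 0.162). On 1423680_at the groups of that day overlapped.

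Fads3, a desaturase that acts on sphingoid bases, was dim and its intervals wide. Its 1 kept probe set, 1418773_at, ranged from 15.6 to 183 over the 18 arrays, against a filter at a signal of 57.5. Within the HP pregnancy group of day 21 alone it read 15.6, 41.4 and 109. The standard error of a difference was 0.629, and the 95% interval for HP pregnancy against control at day 150 ran from -2.05 to 0.59. The 2 probe sets under the filter read at most 73.3 (1435910_at) and 5.9 (1449219_at).

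Elovl1 was low in 1 group of the 6 on its tested probe set, though not on every probe set. Its tested probe set, 1456530_x_at, read 1553, 1392 and 1348 after HP in pregnancy at day 150, and between 1822 and 2452 on the other 15 arrays. Control arrays of day 150 read 2176, 2141 and 2014, and HP lactation arrays 2360, 1919 and 2339. At day 21 the group means were 2157 in control, 2203 after HP in pregnancy and 2088 after HP in lactation, with overlap throughout.

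Elovl1 fell after HP in pregnancy at day 150 against control by 0.56 on the log2 scale (SE 0.140, limma adjusted p = 0.042), or 1.48-fold. Against HP lactation of that day the difference was -0.62 (SE 0.140, limma adjusted p = 0.0477), and against day 21 of the same diet -0.63 (limma adjusted p = 0.00357). Both diet calls sit at the edge of the threshold. The call against control held in 6 of 19 refits and was lost without any 1 of the 6 arrays compared. The call against HP lactation held in 5 of 18 refits and was lost without HP pregnancy replicate 1, 2 or 3 or HP lactation replicate 4, which is an array with Xist signal, or 6. The age call held in 18 of 19, all but the fit with the Gapdh ratio. The difference between the HP pregnancy responses of the 2 days was -0.59 (unadjusted p = 0.00773, limma adjusted p = 0.999).

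The other Elovl1 probe sets had the same sign in both diet contrasts of day 150. Against control, 1455994_x_at gave -0.59 (limma adjusted p = 0.108) and 1425676_a_at -0.24 (limma adjusted p = 0.602) in the fit of every kept probe set, each without overlap, and 1456530_x_at itself gave an adjusted p of 0.0574 there. Probe sets with the suffix x may also bind other transcripts, which holds for the tested set. On 1425676_a_at, without that suffix, the group mean was lower at day 150 than at day 21 in each diet. It went from 772 to 570 in control, without overlap. It went from 766 to 484 after HP in pregnancy and from 790 to 626 after HP in lactation, both with overlap.

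Elovl5 and Elovl2, the elongases of the polyunsaturated chain, had no difference past the test in any comparison. Elovl5 (1415840_at) ranged from 18713 to 30993 over the 18 arrays. Its group means ran from 20954 after HP in lactation at day 21 to 26569 in control at day 150, and neighbours in that order overlapped. At day 150 the HP pregnancy arrays read 23144, 22562 and 23545 and lay just below the control arrays at 24021, 25191 and 30993 (-0.20, 95% interval -0.47 to 0.06, limma adjusted p = 0.397). At day 21 the HP lactation arrays read 21533, 20294 and 21054, below control at 29007, 23437 and 23983 (-0.28, 95% interval -0.54 to -0.01, limma adjusted p = 0.332). Its second probe set, 1437211_x_at, overlapped control in the first of these contrasts.

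Elovl2, the elongase needed for DHA, was measured by 1 probe set, 1416444_at, between 11367 and 17052. It differed in sign from Fads2, Fads6 and Elovl1 between the HP groups of day 150, reading 14820, 14779 and 14346 after HP in pregnancy and 11948, 11492 and 12682 after HP in lactation (0.28, SE 0.129, limma adjusted p = 0.261). Against control of day 150, which read 11367, 13395 and 17052, the HP pregnancy difference was 0.09 (95% interval -0.18 to 0.36).

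**Figure D2:**
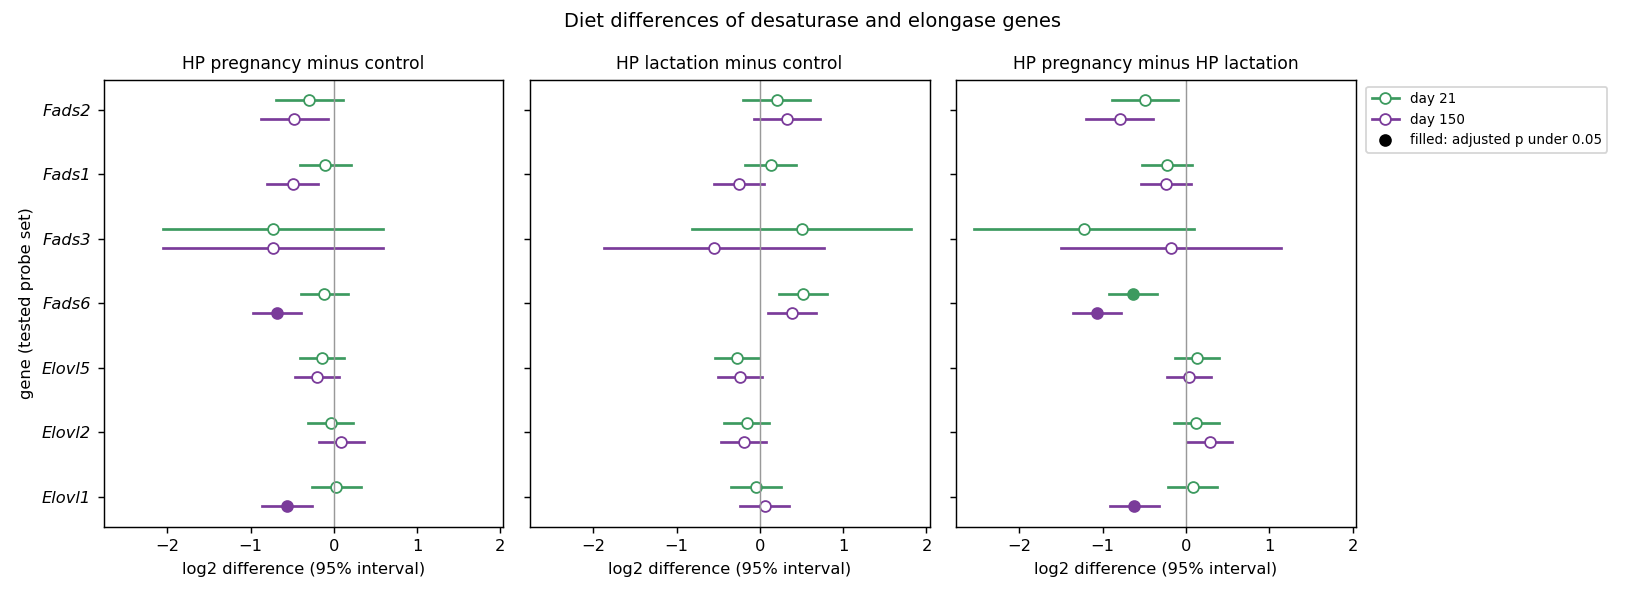
Log2 differences between diets with 95% intervals for the tested probe set of each gene, at day 21 (green) and day 150 (purple); filled points have a limma adjusted p under 0.05. Filled points are Fads6 and Elovl1 for HP pregnancy minus control at day 150, Fads6 at both days and Elovl1 at day 150 for HP pregnancy minus HP lactation.

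Counted together against control at day 150, 2 of the 7 genes fell after HP in pregnancy (Fads6, Elovl1) and none rose, where 2.63% of all 11018 genes were called, or 290. That background rests on single arrays. It was 2 genes without HP pregnancy replicate 2, 9 without control replicate 1, 35 without control replicate 2, 47 without control replicate 3 or HP pregnancy replicate 3, and 162 without HP pregnancy replicate 1. In these same refits 0 or 1 of the 7 was called, and that 1 was Fads6. The median difference of the 7 was -0.50 and that of all genes 0.00. In 5 of the 7 (Fads1, Fads2, Fads6, Elovl1, Elovl5) the HP pregnancy arrays lay below all control arrays, and 27.9% of all genes did not overlap in either direction. Over the 14 kept probe sets, 13 had negative differences and 1 (Fads6) passed the test, against 1.12% of the 22519 kept probe sets. After HP in lactation at day 150 none of the 7 was called (0.00908% of all genes; 1 of the 7 had an unadjusted p under 0.05, against 7.72% of all genes), and 1 did not overlap control, against 13.7%.

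At day 21 none of the 7 was called after HP in pregnancy (0% of all genes; none of the 7 had an unadjusted p under 0.05, against 9.98% of all genes) or after HP in lactation (0.172% of all genes; 2 of the 7 had an unadjusted p under 0.05, against 14.3%). None of the 7 separated from control after HP in pregnancy, against 18.2% of all genes, and 2 did after HP in lactation, against 16.1%. Between the HP groups, 1 of 7 was called at day 21 (Fads6; 1.28% of all genes) and 2 of 7 at day 150 (Fads6, Elovl1; 0.717%), all lower after HP in pregnancy. Over the 14 kept probe sets 1 of Fads6 was called at each day, against 0.626% and 0.453% of all kept sets. Their arrays did not overlap in 3 of the 7 at day 21 (1 lower, 2 higher), against 20.9% of all genes, and in 4 of the 7 at day 150 (3 lower, and Elovl2 higher), against 22.9%. These backgrounds too rest on single arrays: without 1 array the 141 genes called at day 21 became 33 to 361, and the 79 at day 150 became 2 to 251, with Fads6 called in each refit of day 150. These comparisons share groups with those against control. Neither difference of diet responses between days was called for any of the 7, against 0.0182% of all genes in each; 2 of the 7 had an unadjusted p under 0.05 for HP pregnancy, against 3.87% of all genes, and none for HP lactation, against 5.1%.

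The values beside the HP pregnancy result of day 150 were as follows. None of the tested markers of 9 cell types was called against control at that day. The summed signal of 4 B and plasma cell markers lay between 668 and 1046 after HP in pregnancy and between 361 and 660 in control, without overlap. The sums of all other marker lists overlapped, among them those of 6 Kupffer cell markers (19335 to 20691 against 15745 to 21416) and of 5 hepatocyte markers (155419 to 196182 against 163922 to 213928). Over all genes, 27.9% did not overlap control in either direction. Of 30 single markers tested, 5 lay above control without overlap and none below. They were Clec4f (2760 to 3044 against 2128 to 2708) and Csf1r of the Kupffer list, Kdr of the endothelial list (1128 to 1553 against 825 to 1011), and Ms4a1 and Jchain of the B and plasma cell list. The Gapdh ratio was between 1.67 and 1.80 after HP in pregnancy, between 1.30 and 1.79 in control and between 1.55 and 1.76 after HP in lactation. The part of these cells in the result was not tested. With the Gapdh ratio as a covariate, Fads6 kept its call between the HP groups of day 150 (-1.03, limma adjusted p = 0.00247) and lost it against control.

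**Figure D3:**
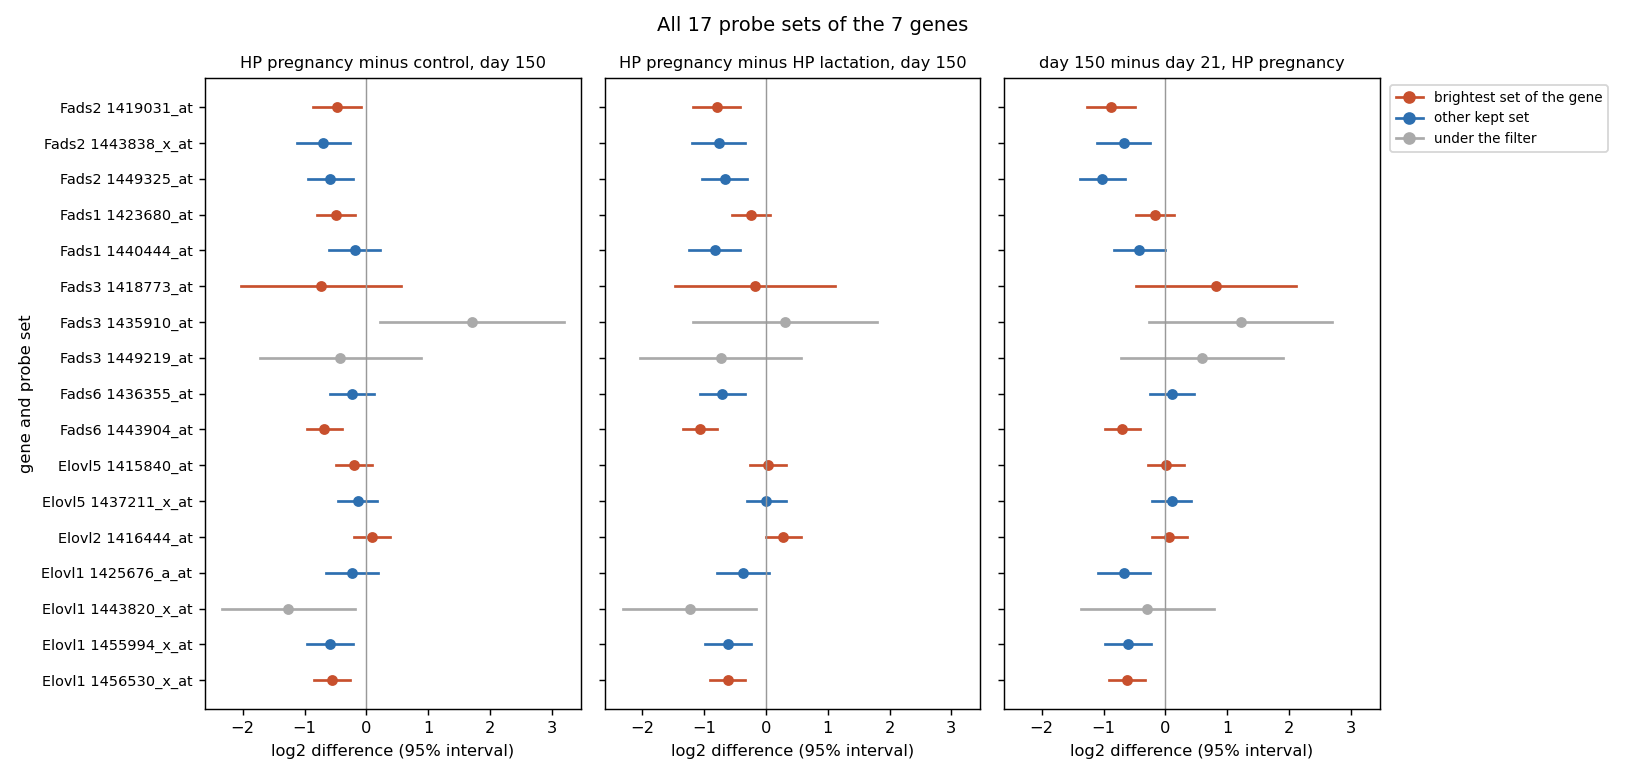
Log2 differences with 95% intervals for all 17 probe sets in 3 comparisons, from a fit without the filter on low signal; red marks the brightest set of a gene, blue other kept sets and grey sets under the filter. The 3 Fads2 sets lie on the negative side in all 3 panels, whereas the 2 Fads6 sets part in the comparison of days (-0.70 and 0.11).

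Age differences were called in a minority of the 7 genes. Fads2 was the 1 gene of 7 called in control (17.8% of all genes called) and in HP lactation (25.7%), and Fads2, Fads6 and Elovl1 were the 3 called in HP pregnancy (23.6%), all falling. In control 1 of 7 separated the days without overlap, against 35.2% of all genes. After HP in pregnancy 4 of 7 did, against 43.9%, and after HP in lactation 1 of 7, against 37.2%. Fads6 fell by 0.70 in HP pregnancy on the tested probe set (SE 0.137, limma adjusted p = 0.00137), while 1436355_at gave 0.11, and the mean of both -0.29 (limma adjusted p = 0.134). With the Gapdh ratio as a covariate it was -0.15 (limma adjusted p = 0.959). Over the 14 kept probe sets, 7 fell in HP pregnancy, against 19.9% of all kept sets called: the 3 of Fads2, 3 of Elovl1 and 1 of Fads6. The shares called in control and HP lactation were 2 and 3 of 14, against 13.6% and 21.1%. The tested probe sets of Elovl2 and Elovl5 differed by at most 0.10 between days in any diet. The second Elovl5 set, 1437211_x_at, gave 0.20 in control, 0.10 in HP pregnancy and 0.31 in HP lactation (limma adjusted p = 0.369, 0.659 and 0.124).

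Markers of other cell types moved with age, as did 17.8% of all genes in control, 23.6% in HP pregnancy and 25.7% in HP lactation. Of 6 stellate and fibroblast markers 4 fell in control and 3 in each HP group, and their sum went from between 21033 and 29312 at day 21 to between 11578 and 18798 at day 150 in control. Of 6 Kupffer cell markers 2 rose in control, 2 in HP pregnancy and 4 in HP lactation, while 1 fell in each HP group. Of the 3 tested B and plasma cell markers 1 rose in each diet. Of 5 endothelial markers 1 fell in each diet, and 1 rose in HP lactation. The acinar marker Cela1 rose in each diet (1.53, 1.60 and 1.70). In both HP groups the erythroid marker Alas2 rose and the adipocyte marker Fabp4 fell. Cela1, Alas2 and Fabp4 were each the 1 tested marker of their list. The other markers of these lists with a probe set, Cpa1, Hba-a1 and Adipoq, were under the filter, so these are values of single genes. The part of other cell types in the age differences was not tested.

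The rest of the pathway was read from 9 lists of 72 genes, of which 56 were tested. Against control at day 150, 1 of the 56 passed the test after HP in pregnancy, where 2.63% of all genes did. This was Agpat2, which acylates lysophosphatidic acid on the way to phospholipids and triglycerides. It fell by 0.62 (SE 0.156, limma adjusted p = 0.0424). Its call held in 7 of 19 refits, in none of those without 1 of the 6 arrays compared. In the list of the peroxisomal shortening that ends DHA synthesis, 6 of 8 tested genes had negative differences against control in each HP group at day 21. After HP in lactation at day 150, 7 of 8 were negative (median -0.15), and 5 of 12 regulators. After HP in pregnancy at day 150 all 8 were negative (median -0.22), as were 11 of 12 regulators (median -0.26). The median over all genes was 0.00 there, with no call in either list. Among regulators, the carbohydrate response factor Mlxipl gave -0.38 (limma adjusted p = 0.0806), the SREBP protease Mbtps2 0.39 (limma adjusted p = 0.0888) and the liver X receptor Nr1h3 -0.38 (limma adjusted p = 0.119). Tecr, the reductase of the last step of each elongation cycle, gave -0.55 (limma adjusted p = 0.0909), and the other 5 tested genes of that cycle lay between -0.08 and 0.05. Of the other elongases, Elovl7 was dim, with a mean of 62.7 after HP in pregnancy and 20.2 in control (1.64, SE 0.507, limma adjusted p = 0.0849). Elovl3 gave -0.76 (limma adjusted p = 0.318) and Elovl6 -0.35 (limma adjusted p = 0.712).

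At day 21 the calls were in other genes after HP in lactation. Against control 1 of the 56 rose and 1 fell, where 0.172% of all genes were called. Elovl3, an elongase of saturated and monounsaturated chains, had a mean of 61.8 against 370 in control and 378 after HP in pregnancy (-2.58, SE 0.412, limma adjusted p = 0.00937). Its HP lactation mean was dim, near the filter signal of 57.5, so the size of this difference is uncertain. Acsl4, the acyl-CoA synthetase that prefers arachidonic acid, rose by 0.86 (SE 0.143, limma adjusted p = 0.0109). The Acsl4 call held in 14 of 19 refits and was lost without control replicate 1 or 2 or HP lactation replicate 1. The Elovl3 call held in 18 of 19 and was lost without control replicate 1. Beside these changes, summed hepatocyte markers lay lower than in control without overlap (128313 to 164236 against 173741 to 188186). This sum was below control without overlap after HP in pregnancy of that day too (132506 to 161032), where none of the 56 was called. The endothelial sum after HP in lactation was also below control without overlap (7355 to 7835 against 8607 to 9277). So was the dim sum of B and plasma cells (107 to 154 against 166 to 192). Most of the endothelial sum came from Clec4g, with a mean of 4238 against 5685 in control. Stab2 was lower too (1255 against 1364), while Lyve1 (978 against 894), Kdr (981 against 896) and Pecam1 (154 against 125) had higher means. The part of these cell types in the calls was not tested. Between the HP groups of day 21 Elovl3 differed by 2.61 (limma adjusted p = 0.00329). It was the 1 gene of the 56 called there, against 1.28% of all genes. None of the 56 was called after HP in pregnancy at day 21, after HP in lactation at day 150 or between the HP groups of day 150. The shares of all genes called there were 0%, 0.00908% and 0.717%.

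With age, 4 of the 56 rose and 11 fell in control, where 17.8% of all genes were called. After HP in pregnancy 6 rose and 18 fell, against 23.6% of all genes. After HP in lactation 7 rose and 14 fell, against 25.7%. On the tested probe sets the elongation cycle split. Tecr fell in all 3 diets (-0.96, -1.35 and -0.93) and the dehydratase Hacd2 fell too (-0.53, -0.44 and -0.35). The ketoreductase Hsd17b12 rose (0.45, 0.35 and 0.50). The phospholipid acyltransferase Lpcat3, which places polyunsaturated chains, fell by 0.84 in control, 1.09 in HP pregnancy and 0.59 in HP lactation. The peroxisomal transporter Abcd2 fell by 2.23 in control, from a mean of 1153 to 246, and the thiolase Acaa1a by 0.90. Scap, the escort of SREBP, fell by 0.49, 0.79 and 0.39. In HP lactation the Scap call held in 11 of 18 refits and was lost without replicate 1 or 2 of day 21 or replicate 5 or 6 of day 150. The Hacd2 call there held in 12 of 18 and was lost without replicate 2 of day 21 or replicate 5 or 6 of day 150. The Lpcat3 call there was lost without replicate 6 of day 150, and the Hsd17b12 call in HP pregnancy without replicate 2 of either day. Elovl3 rose by 5.45 in control, from 370 to 16193, by 4.66 after HP in pregnancy and by 6.74 after HP in lactation. The HP lactation rise starts from the dim mean of day 21. Of the 64 calls by diet or age among these genes, 60 were lost with the Gapdh ratio as a covariate; most are differences between days, from which that ratio cannot be told apart. In the mean of a gene's probe sets the Hsd17b12 calls were lost in all 3 diets, with the opposite sign in HP pregnancy (-0.14). The Hacd2 calls of control and HP pregnancy were lost there too, while the Tecr calls held.

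**Figure D4:**
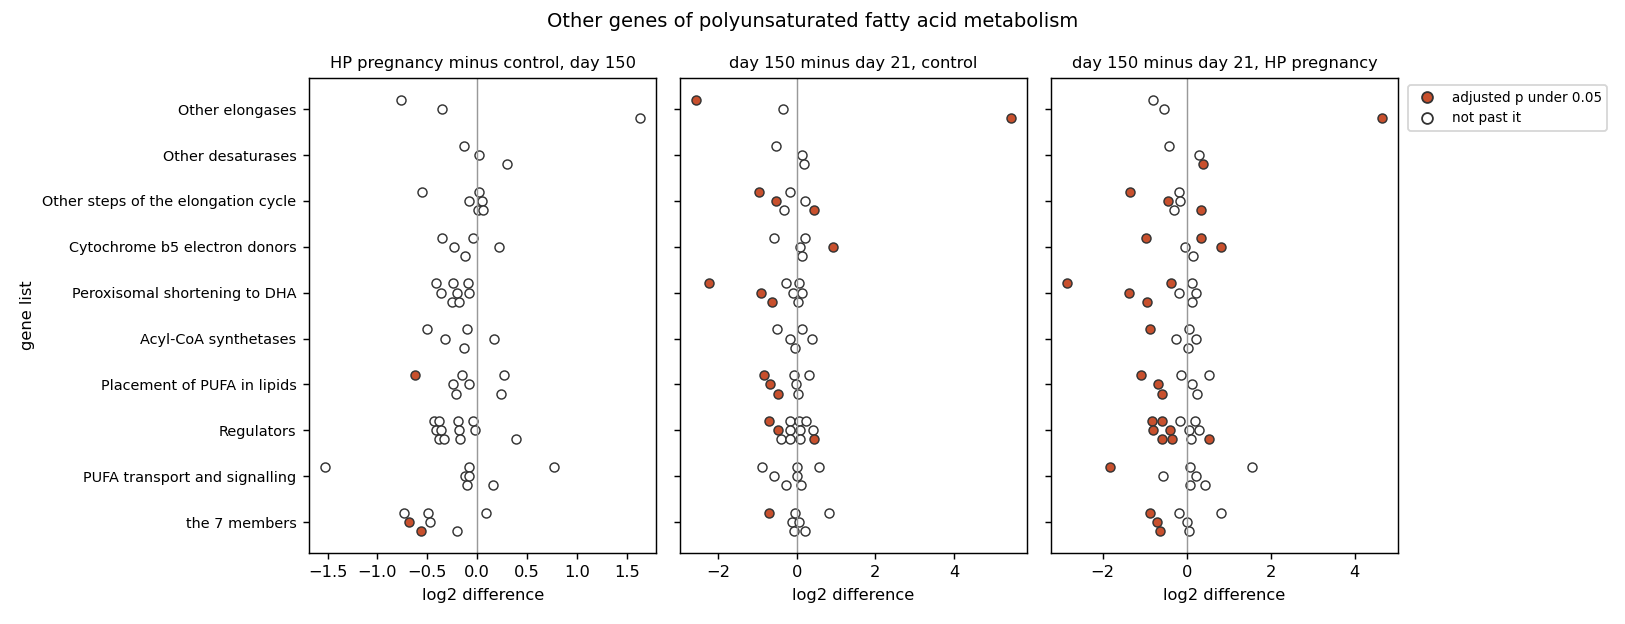
Log2 differences of 56 other genes of polyunsaturated fatty acid metabolism in 9 lists, and of the 7 genes described here, in 3 comparisons; filled points have a limma adjusted p under 0.05. In HP pregnancy minus control at day 150 the filled point outside the 7 is Agpat2 (-0.62), and all points of the peroxisomal list lie below 0. For HP lactation minus control at day 150, not drawn, 7 of its 8 genes lie below 0.

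Within groups, the 7 genes varied together only in part. Over the deviations of the 18 arrays from their group means, which share pools and scanning, Pearson correlations of the 21 pairs ranged from -0.14 (Fads2 with Fads3) to 0.66 (Fads1 with Elovl5), and neighbours Fads1 and Fads2 gave 0.31 (Spearman 0.30). The 3 genes whose deviations were most like those of each member were found among all genes tested. For Fads1 these were Dhcr7 (Pearson 0.89, Spearman 0.81, and 0.82 without the 2 arrays farthest from its median), a sterol reductase, then Cab39l (0.87) and Pip4k2b (0.86). For Fads2 they were Tmem184a (0.93), Slc25a4 (0.85) and Fance (0.85), and for Fads3 Tmem199 (0.84), Ly6g6c (0.82) and Nkapl (0.82). For Fads6 they were Znhit6 (0.92), Apln (0.85) and Tpm3 (0.84), and for Elovl1 Plaat3 (0.92), Coq5 (0.90) and Rap1gds1 (0.88). For Elovl2 they were Wdr6 (0.88), Lratd2 (0.86) and Cep162 (0.84), and for Elovl5 Necab1 (0.87), Vps8 (0.85) and Aven (0.85). No member was among another's 3. These are the highest of 11017 values each and carry no test.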

How the data were processed

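Liver RNA pools of 18 samples (6 groups of 3) were hybridised to Affymetrix mouse arrays. The authors deposited signal intensities on a linear scale, made with MAS5 in GCOS 1.4 per the submitters' processing notes; the annotation is GEO's platform table. No further scaling was applied, and log2 was taken with 0 added. Group means are geometric. Of 45101 probe sets, 34945 name 1 gene symbol, 932 several and 9160 none, control sets apart; 34741 were matched to RefSeq by gene ID. The filter kept the 22519 sets whose log2 signal averaged at least the median over sets (5.85, a signal of 57.5), and the brightest set stood for each of 11018 genes.

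A model with 1 mean per group was fitted to all 18 arrays with limma (version 3.58.1, R 4.3.3), using an eBayes trend (12 residual degrees of freedom plus 6.47 from the prior) for 11 comparisons, two-sided, with Benjamini-Hochberg adjustment over all genes and a threshold of 0.05. The median SE was 0.189 for 2 groups; 3 arrays a group limit the precision. Depth does not apply to arrays, and detection calls were not used here. The code was tested on simulated data. Figures used matplotlib 3.10.9 under Python 3.11.15.

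The members and lists were chosen with earlier results of these data known. All 7 members are named throughout; other list genes were named if past the threshold or among the 3 smallest p of their list. Alternatives were a 70th-percentile filter or none, scaling to equal 75th percentiles, quantile normalization, a pseudocount of 50, a fit of every kept probe set, the mean of a gene's kept probe sets, eBayes without trend, array weights, the compared arrays alone, a replicate block, the Gapdh ratio as a covariate, omission of the Xist arrays, and omission of each array. Protein sequences were not used here.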

Additional observations from a re-analysis of the deposited data

How the results depend on the processing

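Of 77 values (7 genes in 11 comparisons), 10 passed the test, and none of these changed sign over 187 refits, 133 of which kept the call. The 20 values with an unadjusted p under 0.05 kept their sign throughout; of the other 57, 32 had the opposite sign in at least 1 refit and have no settled direction. Of the values not called, 4 were called in at least 1 refit: Fads6 after HP in lactation at day 21 and with age in HP lactation (each without HP lactation replicate 2 of day 21), Fads1 after HP in pregnancy at day 150 and Fads2 between the HP groups of day 150 (with the filter at the 70th percentile).

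Genes called of 7 changed as follows. For HP pregnancy against control at day 150 (2 in the report), it was 1 with no filter, equal 75th percentiles, every kept probe set, eBayes without trend or the replicate block, 0 with the mean of a gene's probe sets or the Gapdh ratio, and 3 with array weights or the compared arrays alone. For the HP groups at day 21 (1 in the report), it was 0 with eBayes without trend, the compared arrays alone or the Gapdh ratio. For the HP groups at day 150 (2 in the report), it was 1 with no filter, equal 75th percentiles, every kept probe set, the mean of a gene's probe sets, eBayes without trend, the compared arrays alone, omission of the Xist arrays or the Gapdh ratio, and that 1 was Fads6 each time; it was 3 with the filter at the 70th percentile. With age, it was 2 in HP pregnancy with the mean of a gene's probe sets (3 in the report), 0 in control without the Xist arrays, 0 in all 3 diets with the Gapdh ratio, and 0 in HP lactation with equal 75th percentiles, eBayes without trend, array weights or the compared arrays alone. Without each array in turn, the count ran from 0 to 1 for HP lactation against control at day 21, HP pregnancy against control at day 150, the HP groups at day 21 and age in control, from 1 to 2 for the HP groups at day 150, and from 0 to 2 for age in HP lactation. The cause of these changes was not tested.

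The count over all genes for HP pregnancy against control at day 150 (290) ran from 2 without HP pregnancy replicate 2, 5 with the Gapdh ratio and 19 with the mean of a gene's probe sets to 1053 with array weights. The labels name no pairing of the samples by number. Same-numbered arrays did not deviate together (correlations from -0.11 to 0.10, against -0.17 to 0.18 for other numbers). With 3 arrays a group these values cannot exclude a pairing. The replicate block, fitted over the 15 arrays numbered 1 to 3, kept 6 of the 7 calls it could test. No paired analysis was possible for HP lactation at day 150 because its arrays carry the numbers 4 to 6.

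Of 64 calls among the other pathway genes, 9 had the opposite sign in 1 refit each. In the mean of a gene's probe sets these were Hnf4a with age in control (-0.049), HP pregnancy (-0.21) and HP lactation (-0.26) and Hsd17b12 with age in HP pregnancy (-0.14). With the Gapdh ratio they were Cyb5r4 (-0.11) and Srebf2 (0.046) with age in HP pregnancy, and Scd1 (-0.063), Slc27a5 (-0.071) and Srebf2 (0.079) with age in HP lactation.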
